A study of Mus musculus with 12 samples.

Results

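Expression of 9 genes of epidermal barrier lipid synthesis (*Elovl4*, *Cyp4f39*, *Cers3*, *Pnpla1*, *Ugcg*, *Abca12*, *Alox12b*, *Aloxe3* and *Smpd1*) was measured by RNA-Seq in differentiating mouse keratinocyte cultures. The genes were chosen by name for their role in the pathway, and each was found as a locus of its own among the 21947 loci of the count table. All 9 passed the filter on low counts in every comparison. *Abca12* was counted together with AK086584 and *Smpd1* together with AK204824. A further locus that joins *Ugcg* to Gm12596 by a comma was left out.

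The epidermis keeps water in through layers of ceramides, cholesterol and fatty acids between its dead outer cells. Differentiating keratinocytes make the ceramides with very long, hydroxylated and linoleate-bearing chains, glucosylate them, pack them into lamellar granules and secrete them. After secretion, lipoxygenases oxidise the linoleate so that ceramides can be bound to the protein envelope of the cell, and other enzymes remove the glucose or phosphocholine head groups. Inherited loss of several of these genes causes ichthyosis, a scaling skin disease with a leaky barrier.

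Primary keratinocytes of newborn BALB/c mice were grown at 0.05 mM calcium and differentiated at 0.12 mM calcium, which was shared by every group. The siSbsn group received 75 pmol of a short interfering RNA (siRNA) pool against *Sbsn*, the gene of suprabasin, and the siControl group received a non-targeting pool 24 hours after seeding, with RNA taken 48 hours after transfection. There were 2 libraries each without siRNA, with siControl and with siSbsn in batch 1, and 3 each with siControl and siSbsn in batch 2. The labels say nothing of what else differed between the batches, nor whether libraries came from separate mice or cultures, so p-values measure only the spread between these libraries. Between 27934836 and 49553923 reads were counted in a library.

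The level of *Sbsn* in batch 2 was 371, 332 and 459 CPM (reads of the gene scaled to the effective size of the library) in siControl and 124, 125 and 121 CPM in siSbsn, so the groups did not overlap. In batch 1 it was 1189 and 1356 CPM in siControl, and 1965 and 697 CPM in siSbsn. The library labelled siSbsn batch 1 replicate 1 thus held the most *Sbsn* of all 12 libraries, against its label. In siControl batch 1 replicate 1, levels relative to the batch mean fell with transcript length more than in any other library (Spearman correlation of -0.673 across 12281 loci, which are not independent), followed by siControl batch 2 replicate 3 (-0.644). The library labelled siSbsn batch 1 replicate 1 and siControl batch 1 replicate 1 are called below the libraries that stood apart. Some results are given also without both. Where no such value is given, a result that uses these libraries may rest on them. No replicates differed by less than the sampling noise. The basal keratinocyte markers *Krt5* and *Krt14* were high everywhere, with the 6 basal markers summing to 19220 to 48800 CPM. The 10 markers of differentiating keratinocytes summed to 990.5 to 2403 CPM in batch 1 and 546.8 to 649.8 CPM in batch 2. Markers of other cells summed over 12 libraries to 698.7 to 1036 CPM (6 of melanocytes), 357.6 to 1163 CPM (6 of fibroblasts), 75.8 to 160.0 CPM (5 of hair follicle), 8.54 to 13.6 CPM (7 found of sebocytes), 2.04 to 12.8 CPM (6 of immune cells), 1.23 to 3.21 CPM (4 of endothelial cells) and at most 0.54 CPM (5 of adipocytes, of which 2 to 4 were at 0 in a library). The hair follicle sum was nearly all *Tchh* (74.69 to 159 CPM), and its other markers reached at most 1.071 CPM (*Lgr5*). The sebocyte sum was nearly all *Soat1* (7.781 to 12.87 CPM), and its other markers reached at most 0.7086 CPM (*Awat2*).

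The promoters of *Alox12b* and *Cyp4f39*, the genes that differed most between batches (below), are shown. That of *Cers3* is shown as an example among the promoters that hold a motif searched for. They are the 300 bases from 250 before to 50 after the annotated start, 5′ to 3′ on the gene's strand, from RefSeq (GRCm38.p6, the same build as mm10), and capitals mark the motifs found.
*Alox12b*, chr11:69156822-69157121, plus strand: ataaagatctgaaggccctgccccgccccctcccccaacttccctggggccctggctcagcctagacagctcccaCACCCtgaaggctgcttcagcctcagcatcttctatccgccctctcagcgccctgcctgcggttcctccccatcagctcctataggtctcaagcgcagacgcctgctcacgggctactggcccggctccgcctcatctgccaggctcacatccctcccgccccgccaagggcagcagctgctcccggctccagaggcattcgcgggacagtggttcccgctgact
*Cyp4f39*, chr17:32452473-32452772, plus strand: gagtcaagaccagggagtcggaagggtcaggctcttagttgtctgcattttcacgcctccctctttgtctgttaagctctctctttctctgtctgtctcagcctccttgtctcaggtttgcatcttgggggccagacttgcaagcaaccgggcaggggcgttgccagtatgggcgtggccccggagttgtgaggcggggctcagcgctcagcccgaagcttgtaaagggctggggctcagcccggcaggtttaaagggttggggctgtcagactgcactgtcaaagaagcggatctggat
*Cers3*, chr7:66743254-66743553, plus strand: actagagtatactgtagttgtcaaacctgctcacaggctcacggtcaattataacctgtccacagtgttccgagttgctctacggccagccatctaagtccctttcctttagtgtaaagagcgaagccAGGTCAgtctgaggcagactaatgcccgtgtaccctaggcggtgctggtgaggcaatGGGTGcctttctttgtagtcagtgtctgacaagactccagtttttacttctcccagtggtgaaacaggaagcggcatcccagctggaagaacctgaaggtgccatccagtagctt
Promoters were found for 8 of the 9 genes, the exception being *Aloxe3*. The letters TGANTCA of the factor AP-1 were searched on both strands, as were AACCNGTT of the Grainyhead factors, TATAAA of the TATA box, the CACCC box of Krüppel-like factors, and the AGGTCA element of nuclear receptors. None overlapped another in the 8 windows. AP-1, Grainyhead and TATA box letters were in none of the 8, against 7.93%, 2.01% and 14.2% of the 27025 promoters in the table. AGGTCA was in *Cers3* and *Smpd1*, against 16.0% of all promoters. CACCC was in *Alox12b*, *Cers3*, *Ugcg*, *Smpd1* and *Pnpla1*, against 56.7%. A match is a run of letters, not a site shown to be bound. The windows also differed in base composition, from 6 CpG in those of *Abca12* and *Pnpla1* to 53 in that of *Ugcg*, with a median of 7 over all promoters.

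Per kilobase of the longest annotated transcript, the order of levels was alike in its upper and lower ends in both batches. Median levels in batch 1 were 79.2 CPM per kb for *Elovl4*, 59.4 for *Cers3*, 45.4 for *Abca12*, 27.5 for *Ugcg*, 26.4 for *Cyp4f39*, 14.0 for *Smpd1*, 6.998 for *Aloxe3*, 4.51 for *Pnpla1* and 2.42 for *Alox12b*. In batch 2 the medians were 27.0 CPM per kb for *Elovl4*, 27.0 for *Cers3*, 26.1 for *Abca12*, 17.5 for *Ugcg*, 10.4 for *Smpd1*, 8.55 for *Aloxe3*, 5.26 for *Cyp4f39*, 1.53 for *Pnpla1* and 0.257 for *Alox12b*. In batch 1 the ranges over libraries overlapped between each pair of neighbours from *Elovl4* down to *Cyp4f39*, and between *Aloxe3* and *Pnpla1*, so these were not ordered beyond their spread. In batch 2 the ranges overlapped between neighbours from *Elovl4* down to *Ugcg*, and the other pairs of neighbours in each batch did not overlap. The longest *Aloxe3* transcript is not protein coding, and on its coding transcript *Aloxe3* (10.9 and 13.3 CPM per kb) stood above *Smpd1* in batch 2.

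**Figure D1:**
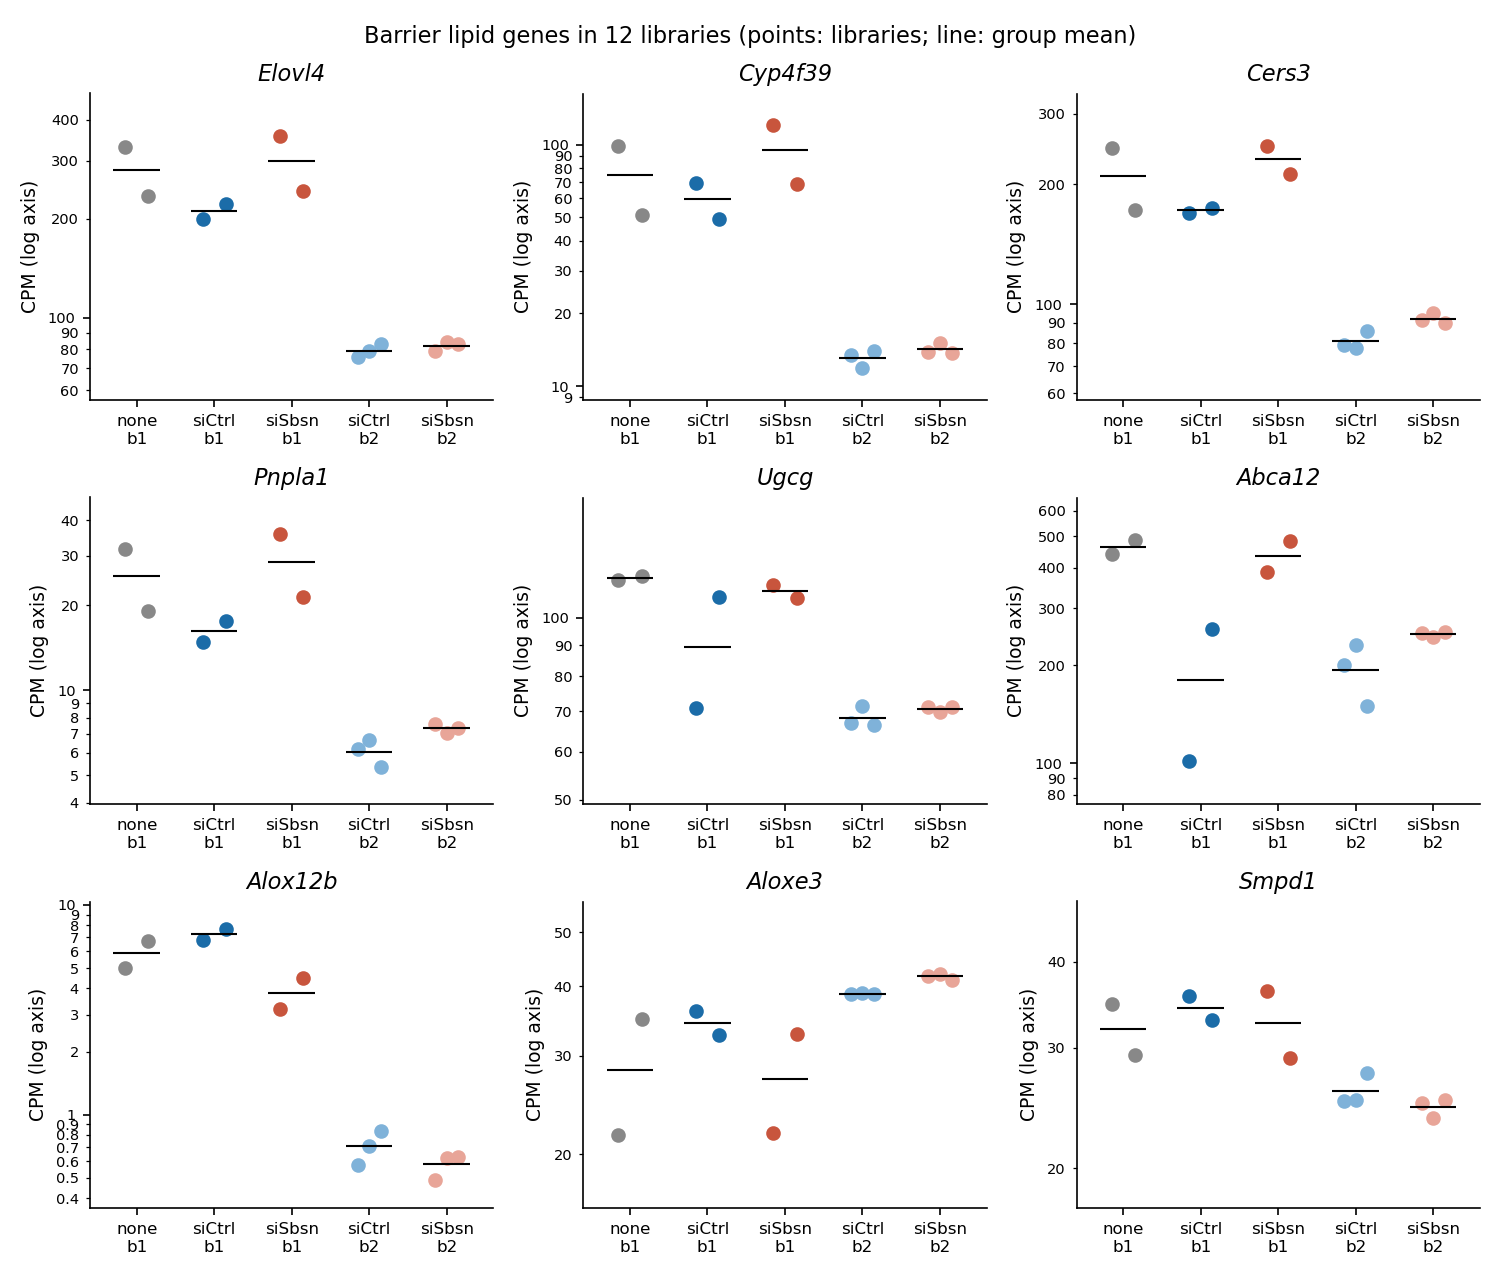
Level (CPM, log axis, own range per panel) of each of the 9 genes in the 12 libraries, grouped by treatment (none, siControl, siSbsn) and batch (b1, b2). Points are libraries and lines are group means. *Alox12b*, *Cers3*, *Smpd1*, *Elovl4*, *Cyp4f39* and *Pnpla1* lie lower in every batch 2 library than in any batch 1 library, and *Aloxe3* lies higher.

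To determine how the genes differed between batches, the batch term of a model with treatment was tested over the 5 siControl and 5 siSbsn libraries. Between batches, 6 of the 9 genes were called lower in batch 2 (absolute log2-fold change above 0.5 and q-value below 0.05, edgeR) and none was called higher. In siSbsn libraries alone 7 were called lower and *Aloxe3* higher, where 2627 of 13171 loci were called lower and 2035 higher. In siControl libraries alone 5 of the 9 genes and 1940 of 13091 loci were called. With both treatments in the model, 37.7% of the 12857 loci tested were called either way, 21.3% lower and 16.4% higher. The median log2-fold change of the 9 genes was -1.22, against -0.02 over all loci tested. Since RNA came from whole cultures, fewer cells at a given stage and less RNA per cell cannot be told apart. Treatment groups were balanced, but batch 2 held no library without siRNA.

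*Elovl4*, the elongase that makes the very long fatty acids of these ceramides (chr9:83778692-83806305, minus strand), was lower in batch 2 than in batch 1. Its levels in batch 1 were 329 and 234 CPM without siRNA, 199 and 222 CPM in siControl, and 356 and 242 CPM in siSbsn. In batch 2 they were 75.9, 79.1 and 83.0 CPM in siControl and 79.2, 84.0 and 83.2 CPM in siSbsn. No batch 2 library came near the lowest batch 1 library. The log2-fold change of batch 2 against batch 1 was -1.65 (SE 0.12, q = 6.757e-06), 3.13-fold lower.

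*Cyp4f39*, the cytochrome P450 that hydroxylates the far end of the very long chains (chr17:32452723-32493320, plus strand), differed more. Its levels in batch 1 were 98.8 and 51.2 CPM without siRNA, 69.5 and 49.2 CPM in siControl, and 120.6 and 68.9 CPM in siSbsn. In batch 2 all 6 libraries lay between 11.9 and 15.02 CPM. The log2-fold change was -2.47 (SE 0.18, q = 4.934e-06), 5.55-fold lower in batch 2.

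*Cers3*, the ceramide synthase that joins the very long chains to the sphingoid base (chr7:66743504-66823692, plus strand), had 245.8 and 172.6 CPM without siRNA, 169.6 and 174.3 CPM in siControl, and 249.6 and 211.8 CPM in siSbsn of batch 1. In batch 2 it had 79.0, 78.0 and 85.6 CPM in siControl and 91.2, 95.2 and 89.8 CPM in siSbsn. Each batch 2 library lay well below each batch 1 library. The log2-fold change was -1.22 (SE 0.08, q = 2.508e-06).

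*Pnpla1*, the enzyme that moves linoleate onto the hydroxylated ceramide to give acylceramide (chr17:28858411-28890308, plus strand), had 31.8 and 19.1 CPM without siRNA, 14.9 and 17.6 CPM in siControl, and 35.7 and 21.4 CPM in siSbsn of batch 1. In batch 2 its levels were 6.17, 6.68 and 5.35 CPM in siControl and 7.62, 7.05 and 7.33 CPM in siSbsn. The batches did not overlap, and the log2-fold change was -1.70 (SE 0.16, q = 2.868e-05).

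*Ugcg*, the glucosylceramide synthase that loads glucose onto ceramide (chr4:59189550-59222833, plus strand), differed less. Its batch 1 levels were 115.4 and 117.0 CPM without siRNA, 71.0 and 108.0 CPM in siControl, and 113.0 and 107.9 CPM in siSbsn, and all batch 2 libraries lay between 66.4 and 71.3 CPM. siControl batch 1 replicate 1 alone overlapped the batch 2 range. The log2-fold change was -0.53 (SE 0.11, q = 0.002965), just past the fold threshold. The call was lost with DESeq2 (-0.50), in siControl libraries alone (-0.40), without siControl batch 1 replicate 2 (-0.41) and when the library labelled siSbsn batch 1 replicate 1 was left out (-0.47). Without both libraries that stood apart the value was -0.64.

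*Abca12*, the transporter that loads glucosylceramide into lamellar granules (chr1:71243090-71414910, minus strand), had the widest spread within batches. Its levels in batch 1 were 442 and 488 CPM without siRNA, 101 and 259 CPM in siControl, and 388 and 485 CPM in siSbsn. In batch 2 they were 200.4, 231.6 and 149.9 CPM in siControl and 252.1, 245.4 and 254.0 CPM in siSbsn. The batches overlapped, and the log2-fold change was -0.36 (SE 0.26, q = 0.2556). It was -0.70 (q = 0.003318) without both libraries that stood apart, -0.65 without siControl batch 1 replicate 1 alone and -0.81 after removal of each library's length trend, and it was called in each of these. In siControl libraries alone it was 0.10, and in siSbsn libraries alone -0.79 (q = 0.001975), where it was called.

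The lipoxygenases differed in opposite ways. *Alox12b*, which oxidises the linoleate of acylceramide (chr11:69157072-69169791, plus strand), was low in every library. It had 5.01 and 6.75 CPM without siRNA, 6.77 and 7.69 CPM in siControl, and 3.17 and 4.46 CPM in siSbsn of batch 1, and 0.486 to 0.837 CPM in batch 2, where 18 to 28 reads were counted per library. The log2-fold change was -3.07 (SE 0.18, q = 2.018e-06), 8.39-fold lower in batch 2, the largest difference between batches among the 9 genes.

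*Aloxe3*, which converts the hydroperoxide made by *Alox12b* (chr11:69126377-69149115, plus strand), lies close to *Alox12b* on chromosome 11. It had 21.6 and 34.9 CPM without siRNA, 36.1 and 32.8 CPM in siControl, and 21.8 and 32.8 CPM in siSbsn of batch 1. In batch 2 it had 38.7, 39.0 and 38.8 CPM in siControl and 41.8, 42.1 and 41.2 CPM in siSbsn. Every batch 2 library thus lay above every batch 1 library, and the log2-fold change was 0.38 (SE 0.13, q = 0.02605), below the fold threshold. In siSbsn libraries alone it was 0.62 (q = 0.02021) and called higher, and in siControl libraries alone it was 0.16. The lower of the batch 1 siSbsn levels, 21.8 CPM, was that of the library labelled siSbsn batch 1 replicate 1. The fit of siSbsn libraries alone was not repeated without this library.

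*Smpd1*, the acid sphingomyelinase that frees ceramide from sphingomyelin (chr7:105554360-105558389, plus strand), lay between 29.0 and 36.3 CPM in batch 1 and between 23.7 and 27.5 CPM in batch 2. The log2-fold change was -0.41 (SE 0.08, q = 0.002286), below the fold threshold although the batches did not overlap. Over all 12 libraries, 6 genes (*Alox12b*, *Cers3*, *Smpd1*, *Elovl4*, *Cyp4f39* and *Pnpla1*) lay lower in each batch 2 library, as did 16.4% of loci tested, and *Aloxe3* lay higher, as did 14.6%.

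Several differentiation genes also differed between batches, though not all in the same direction. Of the 10 markers of differentiating keratinocytes, 6 were called lower and 1 higher in batch 2. The cornified envelope genes *Ivl* (-2.32, SE 0.15), *Lor* (-1.82, SE 0.27) and *Tgm1* (-1.55, SE 0.12) were called lower, while the suprabasal keratin *Krt10* was called higher (0.99, SE 0.38, q = 0.04612). *Krt1* (-1.25, SE 0.71) and *Flg* (0.03, SE 0.50) were not called. Levels of *Krt1* in batch 1 were 46.15 and 26.42 CPM in siControl, and 335.3 (replicate 1) and 46.68 CPM (replicate 2) in siSbsn. In batch 2 they ran from 26.73 to 61.42 CPM. The negative value of *Krt1* thus rested on replicate 1 of siSbsn in batch 1, and no fit of *Krt1* without it is given here. Of the basal keratinocyte markers, 2 of 6 were called lower. Among markers of other cells, 3 of 6 of melanocytes were called higher, 3 of 3 tested of immune cells lower, 2 of 6 of fibroblasts higher and 1 lower, 1 of 3 tested of endothelial cells higher, 1 of 2 tested of hair follicle higher and 0 of 2 tested of sebocytes either way. These counts stand beside 21.3% of loci called lower and 16.4% called higher. The part of these in the difference between batches was not tested.

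**Figure D2:**
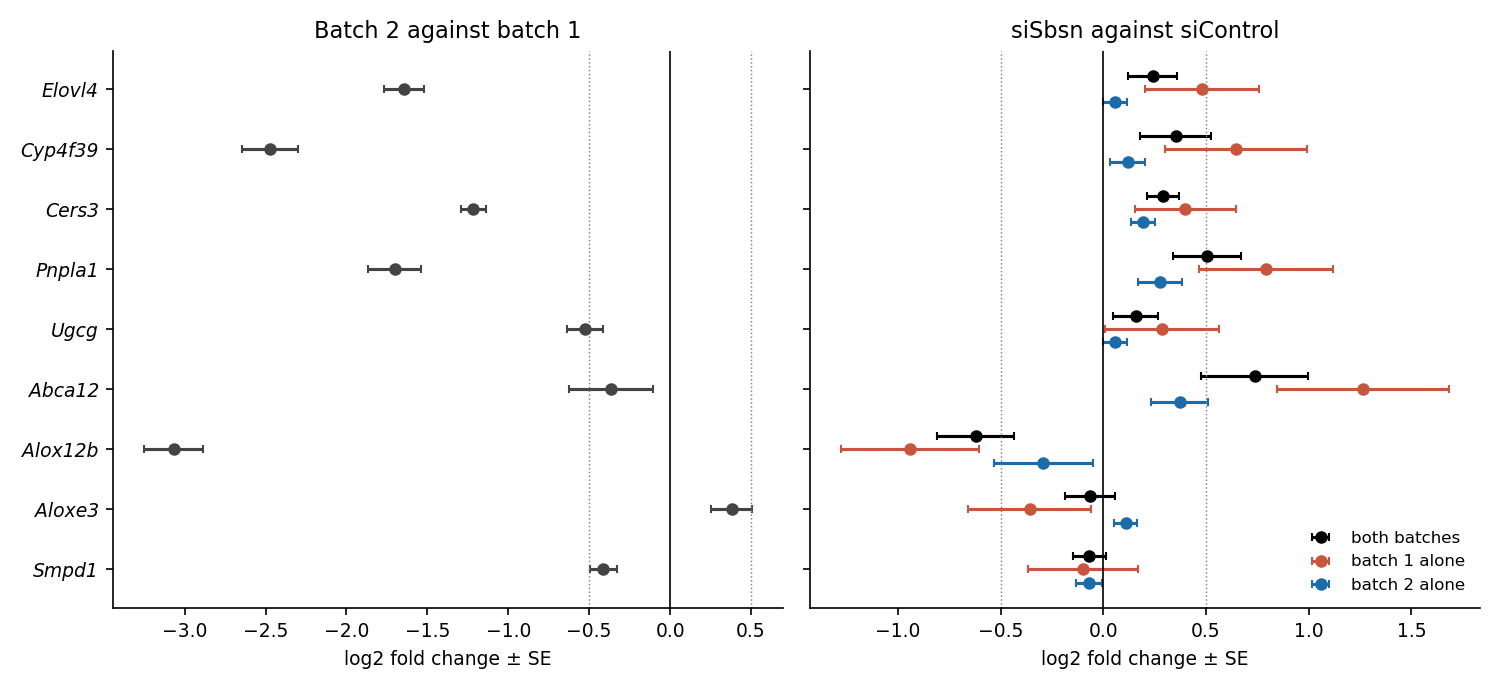
Log2-fold change of each gene for batch 2 against batch 1 (left, 10 libraries) and for siSbsn against siControl (right, over both batches, in batch 1 alone and in batch 2 alone). Points are edgeR estimates, bars are ± SE and dotted lines mark 0.5 either way. Bars on the left stay below 0 for *Elovl4*, *Cyp4f39*, *Cers3*, *Pnpla1*, *Ugcg*, *Abca12*, *Alox12b* and *Smpd1*. On the right, bars stay above 0 in each fit for *Abca12*, *Pnpla1*, *Cers3* and *Cyp4f39*, and below 0 for *Alox12b*. The points of *Elovl4* and *Ugcg* are also above 0 in each fit and those of *Smpd1* below.

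To determine whether the knockdown moved these genes, siSbsn was compared with siControl over both batches, with batch in the model. Across the 9 genes 6 stood higher and 3 lower in siSbsn, with a median log2-fold change of 0.24 against 0.01 over all loci tested. None was called by edgeR, and neither was any of the 12857 loci (0%), although 2464 loci (19.2%) and 4 of the 9 genes had an unadjusted p below 0.05. DESeq2 called 92 loci (0.749%) but none of the 9 genes. Neither batch alone gave a call among the 9 genes, and over all loci edgeR called 0% in batch 1 alone and 0.00774% in batch 2 alone.

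Of the lipid genes, 3 stood higher in siSbsn than in siControl in both batches without overlap: *Abca12*, *Cers3* and *Pnpla1*, 3 of 9 against 5.13% of loci tested. In batch 1 alone the same holds for 4 genes (25.2% of loci), the fourth being *Elovl4*, and in batch 2 alone for 4 genes (9.39%), the fourth being *Aloxe3*. *Abca12* had the largest difference, with siSbsn at 242% of the siControl mean in batch 1 and 129% in batch 2, and a log2-fold change of 0.74 (SE 0.26, q = 0.2536). Without both libraries that stood apart it was 0.51, and without siControl batch 1 replicate 1 it was 0.49. Within batches it was 1.27 (SE 0.42) in batch 1 and 0.37 (SE 0.14) in batch 2.

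*Pnpla1* stood at 176% of siControl in batch 1 and 121% in batch 2, and its log2-fold change was 0.50 (SE 0.16, q = 0.2536). Leaving out the library labelled siSbsn batch 1 replicate 1 gave 0.33, and leaving out both libraries that stood apart gave 0.28. *Cers3* stood at 134% and 114% of siControl, with a log2-fold change of 0.29 (SE 0.08, q = 0.2536). DESeq2 gave *Cers3* a q-value of 0.03601, at a fold below the threshold. Its value was 0.40 within batch 1 and 0.19 within batch 2.

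*Alox12b* was the gene that stood lower in siSbsn by the largest amount, at 52.8% of siControl in batch 1, without overlap, and 82% in batch 2, where the groups overlapped at 18 to 28 reads per library. The log2-fold change was -0.62 (SE 0.19, q = 0.2536), and it was -0.53 without both libraries that stood apart. *Elovl4* (0.24, SE 0.12), *Cyp4f39* (0.35, SE 0.17) and *Ugcg* (0.16, SE 0.11) had positive values in both batches, with groups that overlapped in at least 1 of them. Without both libraries that stood apart the values of *Elovl4*, *Cyp4f39* and *Ugcg* were 0.08, 0.23 and 0.04, and leaving out the library labelled siSbsn batch 1 replicate 1 alone gave 0.16 for *Cyp4f39* and 0.11 for *Elovl4*. Without siControl batch 1 replicate 1 alone *Ugcg* was at 0.05 and *Cyp4f39* at 0.38, and without siControl batch 1 replicate 2 alone they were each at 0.24. *Aloxe3* (-0.06, SE 0.12) and *Smpd1* (-0.07, SE 0.08) were near 0, and *Aloxe3* was 0.08 without both libraries that stood apart.

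Both libraries with the strongest fall of levels with transcript length were both siControl. They also held the lowest *Abca12* of their batch, at 101 CPM in batch 1 and 149.9 CPM in batch 2. The *Abca12* transcript, at 9137 bases, is the longest of the 9, whose others run from 2412 to 4684 bases. Across the 12 libraries, batch-centred levels of *Abca12* had a Pearson correlation of 0.894 with the library's length trend. The correlation was 0.731 for *Ugcg*, -0.68 for *Smpd1* and 0.525 for *Pnpla1*, and between -0.39 and 0.325 for the other genes. After removal of each library's length trend the log2-fold change of *Abca12* was 0.44 in place of 0.74, those of *Pnpla1* and *Cers3* were 0.43 and 0.32, and that of *Alox12b* was -0.50.

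**Figure D3:**
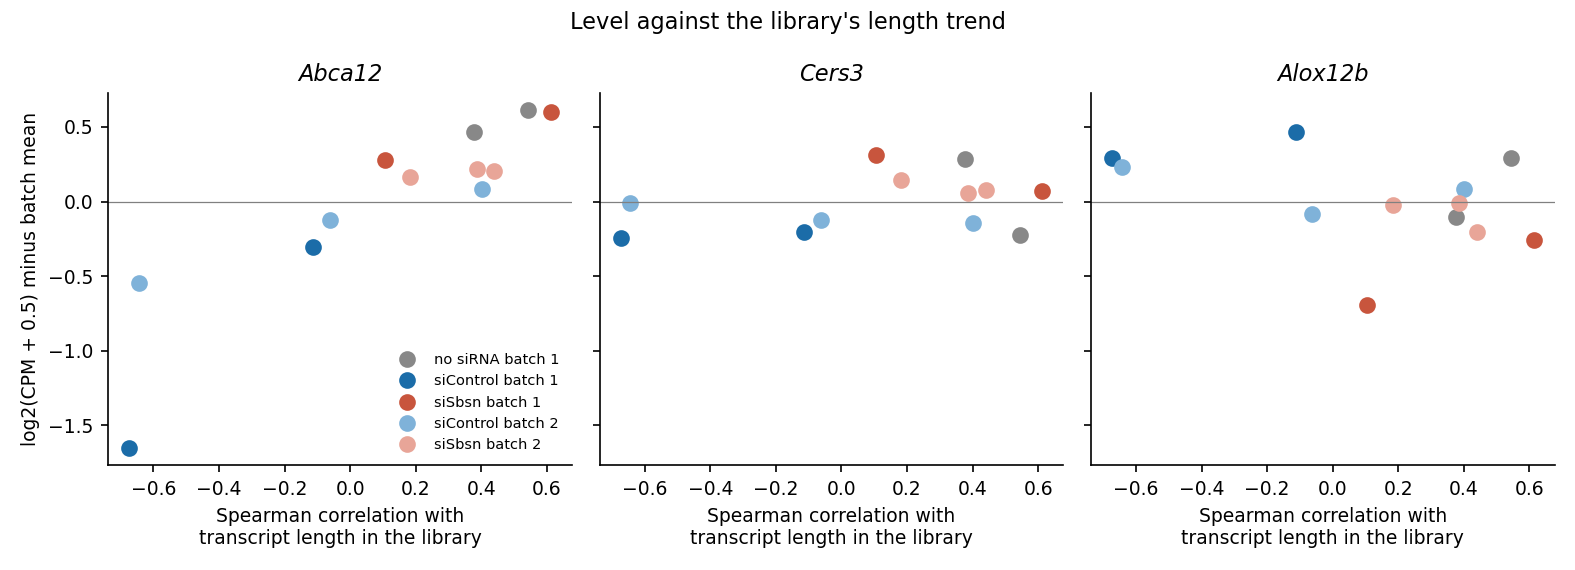
Level of *Abca12*, *Cers3* and *Alox12b* in each of the 12 libraries (log2 of CPM plus 0.5, less the mean of the batch) against that library's Spearman correlation of level with transcript length over 12281 loci. *Abca12* is lowest in the libraries at -0.673 and -0.644, siControl batch 1 replicate 1 and siControl batch 2 replicate 3.

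Whether the siSbsn effect differed between batches was tested by the interaction of batch and treatment, which called none of the 9 genes and 0% of all loci (edgeR, smallest q = 0.265; 1945 loci at an unadjusted p below 0.05, and 165 called by DESeq2). The siSbsn effect in batch 2 minus that in batch 1 was -0.90 (SE 0.46) for *Abca12*, -0.55 (SE 0.32) for *Cyp4f39*, -0.53 (SE 0.30) for *Pnpla1* and 0.64 (SE 0.33) for *Alox12b*. Without both libraries that stood apart these were -0.53, -0.37, -0.01 and 0.49. Without siControl batch 1 replicate 2 the interaction was -1.77 for *Abca12* and -0.61 for *Ugcg*. That fit left siControl batch 1 replicate 1, which stood apart, as the only siControl library of its batch. Without siSbsn batch 1 replicate 2 the interaction was -0.70 for *Elovl4* and 0.77 for *Aloxe3*. Here the library labelled siSbsn batch 1 replicate 1, which also stood apart, was the only siSbsn library of its batch.

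Within batch 1, siControl was compared with the cultures that received no siRNA. None of the 9 genes and 0% of the 13176 loci tested were called (edgeR, 2116 loci and 1 of the 9 genes at an unadjusted p below 0.05; DESeq2 called 25 loci and none of the 9). *Abca12* stood lower in siControl, with a log2-fold change of -1.35 (SE 0.40, q = 0.3077), and its siControl levels of 101 and 259 CPM lay below those without siRNA (442 and 488 CPM). The value was -0.84 without siControl batch 1 replicate 1 and -2.14 without siControl batch 1 replicate 2. Each of these fits had 1 siControl library, in the latter the one whose levels fell most with transcript length. After removal of the length trend the value was -0.76. *Pnpla1* was at -0.62 (SE 0.34) and *Elovl4* at -0.39 (SE 0.26), while *Alox12b* and *Aloxe3* were at 0.33 (SE 0.29) and 0.32 (SE 0.31). These values turned on single libraries without siRNA, since leaving out their replicate 1 gave -0.21, -0.12, 0.13 and 0.01 in the same order, and leaving out their replicate 2 gave -0.94, -0.61, 0.56 and 0.71. The median of the 9 was -0.30, against 0.003 over all loci tested. This comparison and the siSbsn comparison share the siControl libraries of batch 1.

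Other genes of the pathway, in 7 lists of 98 genes, were read in the same fits, with 89 tested. Between batches 39 were called lower and 3 higher, against 21.3% and 16.4% of loci. Among acylceramide and lipid envelope partners 10 of 12 tested were called lower, and among genes of fatty acid elongation and supply 11 of 17. Fewer were called lower among genes from serine palmitoyltransferase to ceramide (4 of 14), of glucosylceramide and sphingomyelin processing (3 of 10, with 1 higher), of ceramide breakdown and sphingosine (4 of 10, with 1 higher), of cholesterol sulfate and lipid transport (3 of 11, with 1 higher) and among regulators (4 of 15).

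The partner with the smallest p was *Dgat2*, a triglyceride synthase, which lay at 55.0 to 112.2 CPM in batch 1 and 12.9 to 14.2 CPM in batch 2, a log2-fold change of -2.56 (SE 0.15). *Ephx3*, an epoxide hydrolase, was at -2.69 (SE 0.19), the lipase family member *Pnpla3* at -1.66 (SE 0.11) and the envelope cross-linking enzyme *Tgm1* at -1.55 (SE 0.12). *Slc27a4*, a fatty acid transport protein, was at -1.01 (SE 0.09) and the transcription factor *Grhl1* at -0.83 (SE 0.07). Those called higher were the ceramidase *Acer3* (0.76, SE 0.09), the sphingomyelin synthase *Sgms2* (0.91, SE 0.18) and the cholesterol exporter *Abca1* (1.09, SE 0.27). Their longest transcripts are 11340, 5801 and 10262 bases. *Abca1* levels overlapped between batches (59.15 to 232.4 CPM in batch 1, 173.1 to 289.3 CPM in batch 2), and those of *Acer3* and *Sgms2* did not. No value of these genes without the libraries that stood apart or after removal of the length trend is given.

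**Figure D4:**
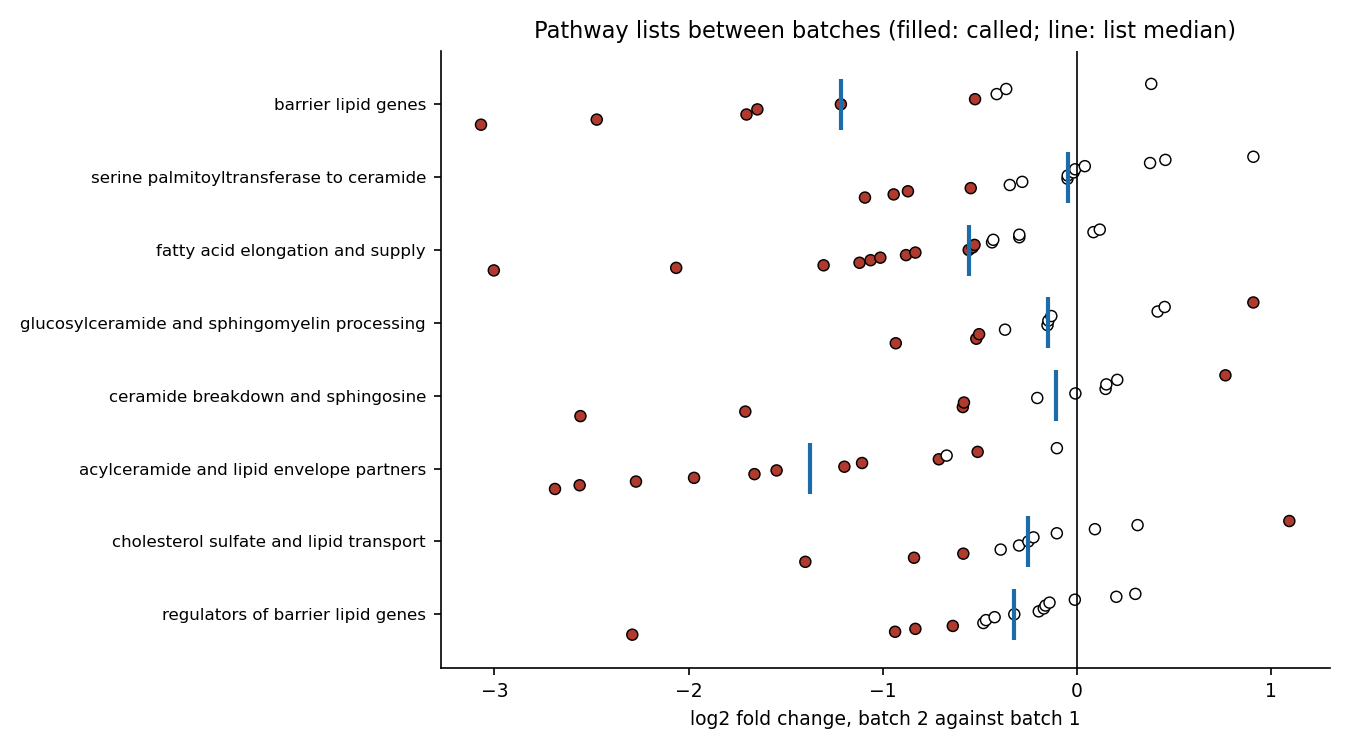
Log2-fold change of batch 2 against batch 1 of the 9 barrier lipid genes (top) and of the tested genes in the 7 lists, 1 point per gene. Filled points were called, open points were not, and bars mark list medians; the median is -1.22 for the 9 genes and -1.37 for acylceramide and lipid envelope partners.

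For siSbsn against siControl none of the 89 pathway genes was called, and 64 stood above 0. The smallest p-values were those of *Grhl1* (0.34, SE 0.07) and the regulator *Zfp750* (0.23, SE 0.07), higher, and of the transcription factor *Cebpb* (-0.29, SE 0.11) and the ceramide synthesis regulator *Ormdl1* (-0.23, SE 0.09), lower. In the interaction the desaturases *Scd1* (-2.12, SE 0.45) and *Scd2* (-2.30, SE 0.53) had the smallest p below 0, and *Sgpp2* (0.47, SE 0.16) and *Hacd1* (0.77, SE 0.28) above 0. *Scd2* lay between 271.2 and 2041 CPM in batch 1, with a median of 480.4 CPM, and between 74.4 and 89.6 CPM in batch 2. Without both libraries that stood apart the interaction was -1.08 for *Scd1*, -1.26 for *Scd2*, 0.20 for *Sgpp2* and 0.48 for *Hacd1*. That fit, chosen after seeing the data, left 1 siControl and 1 siSbsn library in batch 1, so the batch 1 effect had no replicates. Between siControl and no siRNA, *Asah2* (-1.04, SE 0.30), *Abca2* (-0.63, SE 0.20), *Hacd1* (0.93, SE 0.30) and *Sphk2* (0.71, SE 0.28) had the smallest p in each direction, and none was called. The longest transcripts of *Asah2* and *Abca2* are 7049 and 8033 bases, and those of *Hacd1* and *Sphk2* 1876 and 3548. This comparison used siControl batch 1 replicate 1, and no value of these genes without it or after removal of the length trend is given.

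The loci whose pattern over the 12 libraries was nearest to the most variable genes were found after centring log2 CPM on the batch mean. *Abca12* (SD 0.62) was nearest to *Chd9*, *Fryl* and *Abhd2*, with root mean square differences of 0.044, 0.052 and 0.071. Their longest transcripts are 12008, 11340 and 6877 bases, against a median of 3142 over loci with a length. *Cyp4f39* (SD 0.35) was nearest to *Tspan7* (0.061), the joined locus Ang+Rnase4 (0.061) and *Gpr160* (0.070), and *Pnpla1* (SD 0.35) to *Mr1* (0.080), *Nkd2* (0.084) and *Acly* (0.098).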

How the data were processed

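Per the labels and the Methods, the authors used STAR with its default options on the mm10 genome, kept uniquely aligned reads, counted them on UCSC KnownGene loci and deposited whole-number counts without normalization; no source used here states whether strand was used, so antisense reads may be included. Values are named CPM here: the count divided by the TMM effective size of the library over 13562 loci. Tests were edgeR 4.0.16 quasi-likelihood tests (R 4.3.3) with TMM, after its filter on low counts, called at an absolute log2-fold change above 0.5 and a Benjamini-Hochberg q-value below 0.05 over all loci tested, the thresholds of the Methods, which used DESeq2. SE is the size of the log2-fold change over the root of the F statistic. DESeq2 1.42.0, limma 3.58.1 voom, other normalization, no filter and length correction were tried, and the tests were tested on simulated data. Transcript lengths are from GENCODE M21, on the same build, and locus starts were raised by 1. The 9 genes, the lists and the motifs were chosen with earlier results of these data known. Named genes were the 9, *Sbsn*, 6 differentiation genes, up to 6 called pathway genes each way (or the 2 smallest p each way) and the 3 nearest loci of the 3 most variable genes. All 12 libraries were used.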

Additional observations from a re-analysis of the deposited data

How the results depend on the processing

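The 6 calls between batches became 5 to 8 under the alternatives, and the count of the 9 genes called for siSbsn against siControl was 0 in every alternative. Over the whole table that comparison called 92 loci with DESeq2, 150 with all 12 libraries in 1 fit, 1 in batch 2 alone, 1 without both libraries that stood apart and 0 otherwise. Among the alternatives for the interaction, leaving out a library gave 0 to 2 calls of the 9 genes, and the whole-table count was 0 except for 165 with DESeq2, 17 with no filter, 69 with a replicate block, 19 without both libraries that stood apart, 4398 without siControl batch 1 replicate 2 and 435 without siSbsn batch 1 replicate 2. For siControl against no siRNA, no filter gave 1 call (815 loci), leaving out a library gave 0 to 2 calls (2 without siControl batch 1 replicate 2, with 3213 loci) and DESeq2 called 25 loci. The fits that leave 1 library in an arm assume that it varies like the other groups. Between batches, loci called fell to 1940 in siControl libraries alone.

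Directions that turned were as follows, and the cause was not tested. *Smpd1* was 0.046 for siSbsn against siControl, -0.13 in the interaction and -0.10 for siControl against no siRNA after the length trend was removed, -0.0045 in the interaction with all 12 libraries, and -0.15 to 0.15 when a library was left out there. *Aloxe3* for siSbsn against siControl was -0.11 to 0.063 when a library was left out, 0.11 in batch 2 alone and 0.085 without both libraries that stood apart. *Ugcg* in the interaction was -0.61 to 0.031 when a library was left out and 0.056 without both. *Abca12* between batches was 0.10 in siControl libraries alone. For siControl against no siRNA, leaving out a library gave -0.48 to 0.012 for the median of the 9 genes, -0.48 to 0.024 for *Cers3* and -0.70 to 0.25 for *Cyp4f39*; in each, the value above 0 was without no siRNA batch 1 replicate 1. The alternatives without both libraries were chosen after seeing the data.

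Replicate numbers 1 and 2 are shared by the groups of batch 1, but the labels do not say that they pair libraries. Deviations of equal numbers correlated at 0.387, 0.818 and 0.469 between groups, over a single pair of numbers each. With a replicate block the siSbsn difference of *Abca12* was 0.78, and 0 of the 9 genes were called for siSbsn against siControl, in the interaction and for siControl against no siRNA, the 3 comparisons fitted with it. For *Alox12b*, with 18 to 28 reads per batch 2 library, the siSbsn difference in batch 2 alone had an SE of 0.24.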
